A study of Homo sapiens with 11 samples.

Results

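RT4 cells, an established line of human urinary bladder epithelial cells from a bladder tumour, were sequenced as 2 replicates of each of 3 conditions, and the comparison described here is that of the 3 libraries of replicate 1 with the 3 libraries of replicate 2. Membership came from the titles, where the duplicate of every condition is marked (replicate 2). These libraries are 6 of the 11 samples of the series. The others are ChIP-Seq samples of another cell line. Untreated (UT) cells had no nickel, nickel-exposed (Ni-E) cells had 100 μM NiCl2 for 6 weeks, and nickel-washed-out (Ni-W) cells had the same exposure followed by 2 weeks in nickel-free medium. All cultures were grown in McCoy's 5A medium with serum and antibiotics, and the line was a gift from another laboratory. The study's methods call the replicates biological, but neither the methods nor the labels say whether libraries with the same number were grown, extracted or sequenced together. With 1 library per condition and replicate, a culture and its library preparation cannot be told apart.

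Replicate cultures of a line share a genome and differ in what accumulates over passages and in density, medium, harvest and handling. Ribosomal protein and respiratory chain genes are transcribed at high levels as short mRNAs in growing cells, whereas genes for adhesion, matrix and receptors mostly have long mRNAs with long untranslated tails. In RNA-Seq of poly(A) RNA, fragmentation, RNA integrity and amplification are known to act differently on transcripts of different length and GC content.

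The libraries of replicate 1 were shallower than those of replicate 2 in every condition. Replicate 1 held 18065667 estimated reads in UT, 18280556 in Ni-E and 17075833 in Ni-W cells, and replicate 2 held 25721265, 27736454 and 26543400. The depth of the library and the replicate number therefore cannot be told apart. After all libraries were thinned to the smallest total, 3125 genes were called by the test described below, and 3154 without thinning. The share of reads on ribosomal RNA of the cytoplasm was 0.168% and 0.228% in UT (replicate 1 and then 2, as in all pairs of values below), 0.174% and 0.213% in Ni-E, and 0.165% and 0.331% in Ni-W cells, so that replicate 2 was higher in every condition. The mean of the deposited effective lengths over all genes, weighted by TPM, was 1833 and 1586 bases in UT, 1847 and 1655 bases in Ni-E, and 2003 and 1594 bases in Ni-W cells. This mean rests on annotated transcripts, and the length of the RNA itself was not measured.

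The replicate number separated the libraries more widely than nickel did. Over the 8086 genes with a mean of at least 20 CPM (read counts scaled to the size of the library with TMM factors), the replicate accounted for 53.5% of the variance of log2 CPM, the condition for 40.2% and the remainder for 6.34%. The replicate was the largest of these terms for 5011 genes (62%) and the condition for 2712 (33.5%). On the first principal component, with 59.9% of the variance, the 3 libraries of replicate 1 lay at -10.8 (UT), -19.2 (Ni-E) and -31.8 (Ni-W), and those of replicate 2 at 29.0, 9.17 and 23.7, so that the replicates did not overlap. The second component, with 27.2%, placed UT libraries (-24.3 and -15.8) below Ni-E (9.89 and 16.4) and Ni-W libraries (1.63 and 12.1).

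**Figure D1:**
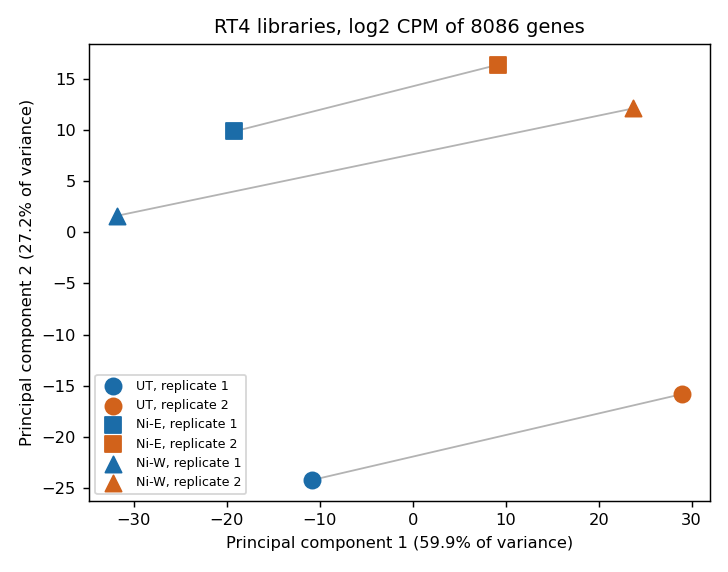
The first and second principal components of log2 CPM over 8086 genes, 1 point per library, with the symbol giving the condition, the colour the replicate, and a grey line joining libraries of 1 condition. All replicate 1 libraries lie left of all replicate 2 libraries, and UT libraries lie below the nickel libraries.

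Deviations of abundant genes were alike in the 3 conditions, to different extents. Across the 8086 genes, the log2 ratio of replicate 2 to replicate 1 in UT cells correlated with that in Ni-E cells (Pearson r = 0.913) and in Ni-W cells (r = 0.953), and the ratios of Ni-E and Ni-W cells correlated at r = 0.876. Over all 14502 tested genes, the values were 0.657, 0.764 and 0.689. These are correlations across genes, which are not independent replicates, and each library belongs to 1 ratio. The ratios of the 8086 genes were widest in Ni-W cells, with an SD of 0.632 on the log2 scale, against 0.459 in UT and 0.347 in Ni-E cells. Counting error alone would give an SD of 0.0641, 0.065 and 0.0623. A difference of at least 1.5-fold was seen for 36.7% of these genes in Ni-W, 19.1% in UT and 8.3% in Ni-E cells.

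Genes were then tested for a difference between replicates that was common to the 3 conditions, with edgeR's quasi-likelihood test, condition as a covariate and Benjamini-Hochberg adjustment over 14502 genes. A gene was called at a difference of at least 1.5-fold and an adjusted p below 0.05. In all, 7157 genes (49.4%) passed the adjusted p, and 3154 were called. Of all genes tested, 1318 (9.09%) were called higher and 1836 (12.7%) lower in replicate 2, and 810 differed at least 2-fold. Without Ni-W replicate 1 or replicate 2, 774 or 806 genes were called higher and 1404 or 1351 lower. Called genes had the same sign in all 3 conditions in 3135 cases (99.4%), against 72.93% of all tested genes, which the test itself favours. For a value of 1 gene, swapping the replicates within conditions cannot give a two-sided p below 0.25, so the adjusted p-values rest on the spread that edgeR shares across genes.

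The split into higher and lower genes depended on the scaling. With TMM scaling, 41.8% of the calls were higher in replicate 2, and with RLE scaling 40.4%. With limma on log2(TPM + 1), 6.26% were higher, and the median of the 13137 genes tested there lay at -0.206 on the log2 scale, against 0.0221 with TMM. With each library centred on its median TPM, 62.3% were higher and the median was 0.12. All fold changes below use TMM scaling.

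Short transcripts were higher and long transcripts lower in replicate 2. In the decile of genes with the shortest transcripts (105 to 1208 bases), the median log2 fold change was 0.525, with 34.4% of genes called higher and 2.21% called lower. In the decile with the longest (6892 to 91670 bases), it was -0.458, with 1.38% higher and 36.7% lower. The order held in each condition and was steepest in Ni-W cells, in which the shortest and longest deciles had medians of 0.694 and -0.642. In Ni-E cells these were 0.344 and -0.352. Across 14502 genes, length and fold change had a Spearman rho of -0.555. GC content of the reference transcript, known for 14031 genes, had a rho of 0.362, and mean CPM of -0.066. The decile lowest in GC had a median of -0.222 and the highest of 0.341. By condition, these deciles stood at -0.219 and 0.338 in UT and at -0.458 and 0.53 in Ni-W cells. In Ni-E cells the range was narrower, from -0.0177 to 0.147, and the lowest median (-0.0776) was that of a decile in the middle (43.14% to 45.66% GC). Both trends were also seen at a similar value of the other property. Among genes in the quartile highest in GC, the medians ran from 0.468 in the quartile of shortest transcripts to -0.0888 in the longest, and among the lowest in GC from 0.251 to -0.416. Together, smooth functions of both accounted for 30.4% of the variance of the log2 fold change.

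A second fit was therefore made with the smooth trend of each library on length and GC content as an offset, which was chosen after the first results were seen. It called 738 genes higher (5.26% of 14031 tested) and 920 lower (6.56%). Of its 1658 calls, 1200 were calls in the same direction without the offset (72.4% of the calls with the offset and 38% of those without). The SD of the pair ratios with the offset was still 0.432 in Ni-W, 0.353 in UT and 0.274 in Ni-E cells, and the correlations between the ratios were 0.909, 0.932 and 0.899. The ribosomal RNA share and the replicate number moved together with these trends, and the part of either library preparation or RNA quality was not tested. Real differences that follow length are removed by the offset as well.

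**Figure D2:**
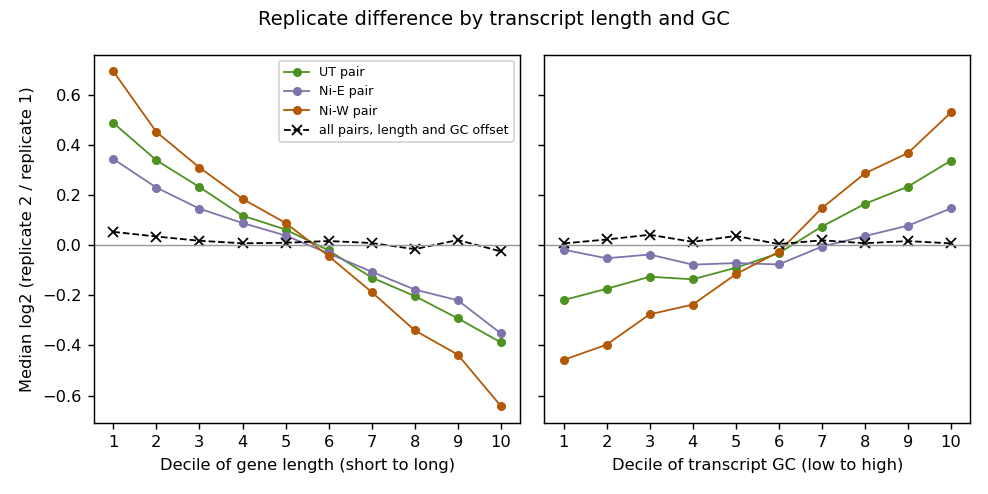
Median log2 ratio of replicate 2 to replicate 1 (y axis) in deciles of the tested genes by transcript length (left) and GC content (right), with 1 line per condition and a dashed line for the fold change over the 3 conditions with the length and GC offset. The lines fall from 0.694 to -0.642 in Ni-W cells along length, and the Ni-E line is the flattest along GC content. The dashed line stays near 0 by construction, since the offset removes these trends.

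The median of the ribosomal protein genes was above 0 in every condition, although most of them were not called. Of the 73 tested genes for proteins of the cytoplasmic ribosome, 29 were called higher, 0 lower and 44 neither, with a median log2 fold change of 0.549 (0.0221 over all genes) and medians of 0.515 in UT, 0.33 in Ni-E and 0.755 in Ni-W cells. Of all tested genes, 9.09% were called higher. Together these genes took 8.02% and 10.5% of the reads in UT, 7.68% and 9.33% in Ni-E, and 6.13% and 9.51% in Ni-W cells. RPL24, a protein of the large subunit, stood at 547 and 947 CPM in UT, 588 and 879 CPM in Ni-E, and 475 and 991 CPM in Ni-W cells. All 3 values of replicate 2 were above all 3 of replicate 1, a log2 fold change of 0.81 ± 0.096 (SE, adjusted p = 0.00026). RPS24, of the small subunit, had 808 and 1359 CPM in UT, 843 and 1209.5 CPM in Ni-E, and 645 and 1310.1 CPM in Ni-W cells (0.76 ± 0.097, adjusted p = 0.000348), again without overlap. With the offset, 7 of the 73 were called higher and 1 lower (5.26% and 6.56% of all genes), the median was 0.158, and RPL24 (0.41) and RPS24 (0.39) were no longer called.

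The calls that stayed with the offset included RPL27A (0.75 ± 0.105 without and 1.04 with it) and RPL14 (0.75 ± 0.089 and 1.19), whose annotated transcripts are 4535 and 7029 bases long, while the median of the list is 881 bases. The offset treats them as long genes, and the length of the RNA that was in fact sequenced was not measured. Among the most abundant genes, RPS27 (901 and 960 CPM in UT, 887 and 887 CPM in Ni-E, 691 and 855 CPM in Ni-W) and RPL13A had log2 fold changes of 0.13 (adjusted p = 0.208) and 0.25 (adjusted p = 0.0316) and were not called, and both were below 0 with the offset (-0.33 and -0.14) and on the TPM scale (-0.15 and -0.02).

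Ribosomal protein mRNAs typically begin with a C followed by an unbroken run of pyrimidines, the 5′ terminal oligopyrimidine tract, through which their translation is regulated. This start is shown because it is a sequence feature that the list shares and that the choice of libraries did not use. Of the 49 tested ribosomal protein genes with a start in RefSeq's table (GRCh38.p14), 38 (77.6%) have a C at the annotated first base followed by pyrimidines up to at least base 5, read on the transcribed strand, against 430 of 7945 tested genes (5.41%) and 3.98% of the 22114 starts in the table. The share was 7.04% among genes called higher and 5.32% among genes called lower, both near the share of all tested genes. The 30 bases before and 20 bases from the start follow, with the tract in capitals, for 3 ribosomal protein genes, for SNHG12 and GAS5 (host genes of small nucleolar RNAs, both higher in replicate 2), and for TFRC and HSPA8, which were lower. GAS5, TFRC and HSPA8 have no such tract at the annotated start, and 3 of the 10 host genes with a listed start have it. Which starts the cells used was not measured, so absence at the annotated start does not show that the RNAs of these genes lack a tract. The sequences printed below are those at the annotated starts. They lie at chr3:101686699-101686748 (minus strand, RPL24), chr10:78033833-78033882 (plus, RPS24), chr11:8682762-8682811 (plus, RPL27A), chr1:28581854-28581903 (minus, SNHG12), chr1:173869026-173869075 (minus, GAS5), chr3:196082071-196082120 (minus, TFRC) and chr11:123062117-123062166 (minus, HSPA8).
RPL24: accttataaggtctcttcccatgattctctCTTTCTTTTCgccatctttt
RPS24: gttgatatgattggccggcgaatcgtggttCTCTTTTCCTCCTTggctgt
RPL27A: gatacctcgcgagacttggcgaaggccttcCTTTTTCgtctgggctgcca
SNHG12: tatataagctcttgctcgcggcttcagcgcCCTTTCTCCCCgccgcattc
GAS5: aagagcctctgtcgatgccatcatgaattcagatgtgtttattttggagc
TFRC: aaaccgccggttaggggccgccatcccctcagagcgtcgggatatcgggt
HSPA8: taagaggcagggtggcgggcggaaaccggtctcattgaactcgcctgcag

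Of 64 nuclear-encoded genes of the respiratory chain, 28 were called higher and 0 lower (median 0.514), against 9.09% of all genes called higher, and with the offset 4 and 0 (median 0.148), the latter near the 5.26% of all genes called higher. NDUFB1, a subunit of complex I, had 42.1 and 71.6 CPM in UT, 35.0 and 56.2 CPM in Ni-E, and 34.3 and 81.5 CPM in Ni-W cells (0.90 ± 0.12, adjusted p = 0.000396, and 0.47 with the offset, not called). Its 3 values in replicate 2 were above the 3 in replicate 1. UQCRB, a subunit of complex III with an annotated transcript of 4821 bases, was called in both fits (0.85 and 1.19). Of 12 small nucleolar RNA host genes, 6 were called higher and 0 lower (median 0.595; 9.09% and 12.7% of all genes), and 0 and 0 with the offset (median 0.238). GAS5 had 133 and 229 CPM in UT, 160 and 239 CPM in Ni-E, and 114 and 239 CPM in Ni-W cells (0.82 ± 0.098, adjusted p = 0.000278). Of 15 tested histone genes, most are replication-dependent, with mRNAs that largely lack a poly(A) tail. In this list 5 were called higher and 0 lower (median 0.302), against 9.09% and 12.7% of all genes. With the offset 0 and 2 of 13 were called, against 5.26% and 6.56% of all genes. The list also holds the polyadenylated replacement linker histone H1F0, which was not called (0.04). Apart from these, 12 annotated ribosomal RNA loci were tested. The 10 nuclear loci are annotated copies of the 28S RNA and of its 45S precursor, and the copies of each had the same value in every library, so that they are not separate measurements. All 10 were called higher, while the mitochondrial RNR1 (0.31) and RNR2 (0.44) were not called.

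The most abundant gene that was lower in replicate 2 by a wide margin was HSPA8, which encodes the constitutive HSC70 chaperone of the cytosol. It had 1555 and 374 CPM in UT, 1950.2 and 714 CPM in Ni-E, and 2054 and 428 CPM in Ni-W cells. Every value of replicate 1 was above every value of replicate 2, and the fold difference was 3.79 (log2 fold change -1.92 ± 0.135, adjusted p = 7.65e-05). With the offset the value was -1.93, and the annotated transcript is 2264 bases long. Of 16 heat shock and cytosolic chaperone genes tested, HSPA8 was the only one lower (12.7% of all genes) and HSPB1, a small heat shock protein, the only one higher (9.09% of all genes; 375 and 569 CPM in UT, 390 and 503 CPM in Ni-E, 316 and 604 CPM in Ni-W, log2 fold change 0.63). The value of HSPB1 was -0.07 with the offset.

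TFRC, the transferrin receptor that takes up iron, had 849 and 302 CPM in UT, 1183 and 496 CPM in Ni-E, and 910 and 246 CPM in Ni-W cells (-1.54 ± 0.112, adjusted p = 7.65e-05, and -1.21 with the offset). Replicates did not overlap. Of 10 tested genes of iron handling, 4 were called lower and 0 higher, with a median of -0.514, against 12.7% and 9.09% of all genes. With the offset TFRC was the only one called (median -0.327; 6.56% of all genes lower). The others were IREB2, an iron-responsive RNA-binding protein (-0.91), NCOA4, the receptor for ferritin degradation (-0.75), and SLC40A1, the iron exporter ferroportin (-0.69). In TPM, the iron list as a whole was dominated by ferritin heavy chain, FTH1, and its summed TPM was 9278 and 9015 in UT, 11270 and 11070 in Ni-E, and 10080 and 10150 in Ni-W cells. The sum thus changed little in TPM, while the fold changes above use TMM scaling. On the TPM scale, TFRC had 339 and 105 in UT, 455 and 180 in Ni-E, and 386 and 85.2 in Ni-W cells.

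THBS1, encoding the matrix protein thrombospondin-1, had 563 and 187 CPM in UT, 652 and 289 CPM in Ni-E, and 643 and 174 CPM in Ni-W cells (-1.55 ± 0.12, adjusted p = 8.14e-05, and -1.08 with the offset). The replicates did not overlap. It belongs to an extracellular matrix list in which 6 of 28 were lower and 2 higher (median -0.118, and 1 and 1 with the offset), in a background of 12.7% lower and 9.09% higher. TIMP1, an inhibitor of matrix proteases, was on the higher side (53.5 and 97.0 CPM in UT, 68.5 and 93.6 CPM in Ni-E, 51.1 and 115 CPM in Ni-W, log2 fold change 0.82) but was not called with the offset (0.27).

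Targets of YAP and TEAD, a transcriptional pathway that responds to cell density and tension, had a median of -0.525. Of these targets, 7 of 17 were called lower and 0 higher, against 12.7% and 9.09% of all genes. Their medians were -0.562 in UT, -0.379 in Ni-E and -0.577 in Ni-W cells. CRIM1, a transmembrane regulator of BMP signals, had 73.8 and 26.1 CPM in UT, 108 and 45.2 CPM in Ni-E, and 115 and 30.6 CPM in Ni-W cells (-1.55 ± 0.124, adjusted p = 9.33e-05). It was called with the offset too (-1.18), as was PTPN14, a phosphatase of the same pathway (-1.15 and -0.62), while ASAP1 and DLC1 were not. With the offset, 2 of 17 were lower (6.56% of all genes) and the median was -0.294, against 0.015 over all genes. The list's genes are long, with a median of 4870 bases.

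Of 18 desmosome and tight junction genes, 8 were called lower, 0 higher and 10 neither, with a median of -0.424. With the offset 3 were lower and the median was -0.278, in a background of 12.7% lower without and 6.56% with the offset. Of those called in both fits, CLDN12, a claudin, had 29.0 and 14.4 CPM in UT, 25.9 and 18.2 CPM in Ni-E, and 34.4 and 11.8 CPM in Ni-W cells (-1.01 ± 0.172, adjusted p = 0.00114, and -0.81 with the offset). PKP2, plakophilin-2 of the desmosomal plaque, had 38.5 and 19.2 CPM in UT, 29.4 and 18.9 CPM in Ni-E, and 41.3 and 15.97 CPM in Ni-W cells (-1.005 ± 0.138, adjusted p = 0.000456, and -0.73 with the offset). The replicates did not overlap in either. OCLN, encoding occludin, was called without the offset only (-1.01 and -0.57).

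Urothelial markers were expressed in both replicates. All 18 markers listed passed the expression filter, with 2 called higher and 0 lower (median 0.271), near the 9.09% of all genes called higher, and 0 and 0 with the offset (median 0.0587). UPK2, a uroplakin of the urothelial plaque, had 113 and 193 CPM in UT, 39.3 and 58.5 CPM in Ni-E, and 81.8 and 158 CPM in Ni-W cells, and KRT18, a keratin of simple epithelia, 730.2 and 1165 CPM, 828 and 1076 CPM, and 679 and 1347 CPM. The replicates overlapped for UPK2, whose values differed by condition as well, and not for KRT18. The summed TPM of the 18 was 13820 and 15210 in UT, 14690 and 15010 in Ni-E, and 14460 and 17630 in Ni-W cells. KRT19 was the most abundant in both UT libraries and KRT7 in the 4 nickel libraries. TAGLN, an actin-binding protein of contractile cells, was higher in both fits (21.8 and 33.3 CPM in UT, 19.96 and 25.3 CPM in Ni-E, 19.8 and 35.3 CPM in Ni-W, 0.60 ± 0.12, adjusted p = 0.00268). In a squamous and terminal differentiation list, 14 of 32 genes were tested, and 4 were higher (9.09% of all genes) and 0 lower. With the offset KRT10, a keratin of differentiating epithelium, was the only one called, against 5.26% of all genes called higher (49.7 and 77.8 CPM in UT, 35.9 and 55.8 CPM in Ni-E, 37.7 and 70.0 CPM in Ni-W).

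Most markers of other cell types did not pass the expression filter. Of 7 leukocyte markers, ITGAM, an integrin chain of myeloid cells, was the one that passed and it was not called (11.9 and 10.7 CPM in UT, 14.8 and 13.7 CPM in Ni-E, 21.7 and 23.1 CPM in Ni-W, -0.05), and the pan-leukocyte gene PTPRC was at or below 0.04 TPM in every library. None of 5 erythroid markers passed. Among 8 fibroblast markers, 2 passed, 1 called in each direction, and the list summed to 1.73 and 1.11 TPM in UT, 4.75 and 3.01 TPM in Ni-E, and 5.13 and 2.36 TPM in Ni-W cells. COL3A1, a fibrillar collagen and the most abundant of them in TPM in the nickel libraries, had 2.36 and 0.864 CPM in UT, 11.96 and 7.07 CPM in Ni-E, and 11.8 and 5.05 CPM in Ni-W cells, while COL1A1 had the highest TPM in both UT libraries (0.85 and 0.80 TPM) and COL1A2 was listed at 0 TPM in all 6 libraries. Of 5 endothelial markers, VWF alone passed, lower in replicate 2 (-0.67) but not with the offset (-0.41), and PECAM1 was at or below 0.04 TPM. In bulk RNA, fewer cells of a kind and less RNA per cell cannot be told apart.

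In the DNA replication list, 3 of 34 were lower and 1 higher (median -0.0817), against 12.7% and 9.09% of all genes. The same counts were found with the offset, against 6.56% and 5.26%. MCM2, of the replicative helicase, had 194 and 124 CPM in UT, 228 and 156 CPM in Ni-E, and 161 and 102 CPM in Ni-W cells (-0.62 ± 0.077, adjusted p = 0.000309, and -0.65 with the offset). ORC1, of the origin recognition complex, was lower (-0.94 and -0.86 with the offset), while ORC6 of the same complex was higher, with 25.1 and 45.1 CPM in UT, 29.2 and 42.7 CPM in Ni-E, and 24.2 and 43.1 CPM in Ni-W cells (0.74 ± 0.105, adjusted p = 0.000511, and 0.60 with the offset). The replicates did not overlap for ORC6, and the members of 1 complex thus differed in opposite directions. Of 32 mitosis genes, 5 were lower and 2 higher, near the shares over all genes. ECT2, an exchange factor needed for cytokinesis, was the lowest (41.5 and 13.1 CPM in UT, 30.7 and 13.2 CPM in Ni-E, 57.6 and 10.8 CPM in Ni-W, -1.77 ± 0.189, adjusted p = 0.000182). The proliferation marker MKI67, with a transcript of 11797 bases, was called lower without the offset (-0.80) and not with it (-0.29).

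Of 40 interferon-stimulated genes tested, 5 were higher and 7 lower, near the shares of 9.09% and 12.7% over all genes, and with the offset 1 and 5. ISG15, a small ubiquitin-like protein, was on the higher side, with 11.7 and 18.3 CPM in UT, 37.9 and 59.7 CPM in Ni-E, and 72.7 and 154 CPM in Ni-W cells (0.81 ± 0.113, adjusted p = 0.000481), but with the offset its value was 0.10 and it was not called. DDX60, a helicase of antiviral sensing (-1.11), and CMPK2, a mitochondrial nucleotide kinase (-1.32), were lower in both fits. Chemokines and other targets of NF-kB included 6 of 24 higher and 1 lower without the offset and 0 and 2 with it (5.26% and 6.56% of all genes), and the list's median was above 0 with TMM (0.136) and below 0 on the TPM scale (-0.08). NFKB1, the p105 and p50 subunit, was lower in both fits (109 and 55.1 CPM in UT, 133 and 77.9 CPM in Ni-E, 148 and 71.9 CPM in Ni-W, -0.93 ± 0.089, adjusted p = 0.000153).

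In cholesterol synthesis and uptake, 4 of 25 were lower and 2 higher, near the 12.7% and 9.09% of all genes. With the offset 1 was lower and 0 higher, against 6.56% and 5.26% of all genes. EBP, a sterol isomerase, was higher without the offset only (67.4 and 109 CPM in UT, 65.7 and 92.1 CPM in Ni-E, 52.3 and 96.4 CPM in Ni-W, 0.69 and 0.30 with the offset), and CYP51A1, a sterol demethylase, lower without it only (-0.66 and -0.53). In fatty acid synthesis, 3 of 11 were lower (ACACA, ACLY and ELOVL5) and 0 higher, against 12.7% and 9.09% of all genes. With the offset none of these was called and 1 other gene was higher, against 6.56% lower and 5.26% higher of all genes. In the integrated stress response, 3 of 26 were higher and 1 lower, and the higher share was near that of all genes (9.09%, and 12.7% lower). NUPR1, a stress-induced chromatin protein, had 1.83 and 4.75 CPM in UT, 4.69 and 8.05 CPM in Ni-E, and 8.73 and 20.6 CPM in Ni-W cells (1.11 ± 0.164, adjusted p = 0.0006), and its annotated transcript is 5295 bases long. ATF4, the transcription factor of that response, was at 420.3 and 661 CPM in UT, 586 and 782 CPM in Ni-E, and 438 and 748 CPM in Ni-W cells, called without the offset only (0.61 and 0.33).

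Among 8 tested genes of metallothioneins and zinc handling, 4 were lower and 1 higher, against 12.7% and 9.09% of all genes. With the offset the zinc importer SLC39A6 and the zinc exporter SLC30A1 were lower (6.56% of all genes). SLC30A1 had 40.4 and 17.1 CPM in UT, 76.7 and 45.7 CPM in Ni-E, and 112 and 37.8 CPM in Ni-W cells (-1.18 ± 0.141, adjusted p = 0.000272). NDRG1, a strongly hypoxia-inducible gene that nickel ions are known to induce, had 284 and 185 CPM in UT, 1139 and 781 CPM in Ni-E, and 781 and 490 CPM in Ni-W cells. Both UT values were below both Ni-W values, and neither Ni-W value exceeded a Ni-E value, while replicate 2 was lower in every condition (-0.61 ± 0.075, adjusted p = 0.000292, and -0.65 with the offset). Of 19 hypoxia targets outside glycolysis, EGLN1, the oxygen sensor, and NDRG1 were lower and 0 were higher, near the 12.7% of all genes called lower. EGLN1 was not called with the offset (-0.62 and -0.18). Also, of 21 glycolysis genes 2 were lower in either fit, again near the share over all genes, PFKFB3 (19.3 and 9.50 CPM in UT, 147 and 74.8 CPM in Ni-E, 72.4 and 27.3 CPM in Ni-W) and PGAM1.

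**Figure D3:**
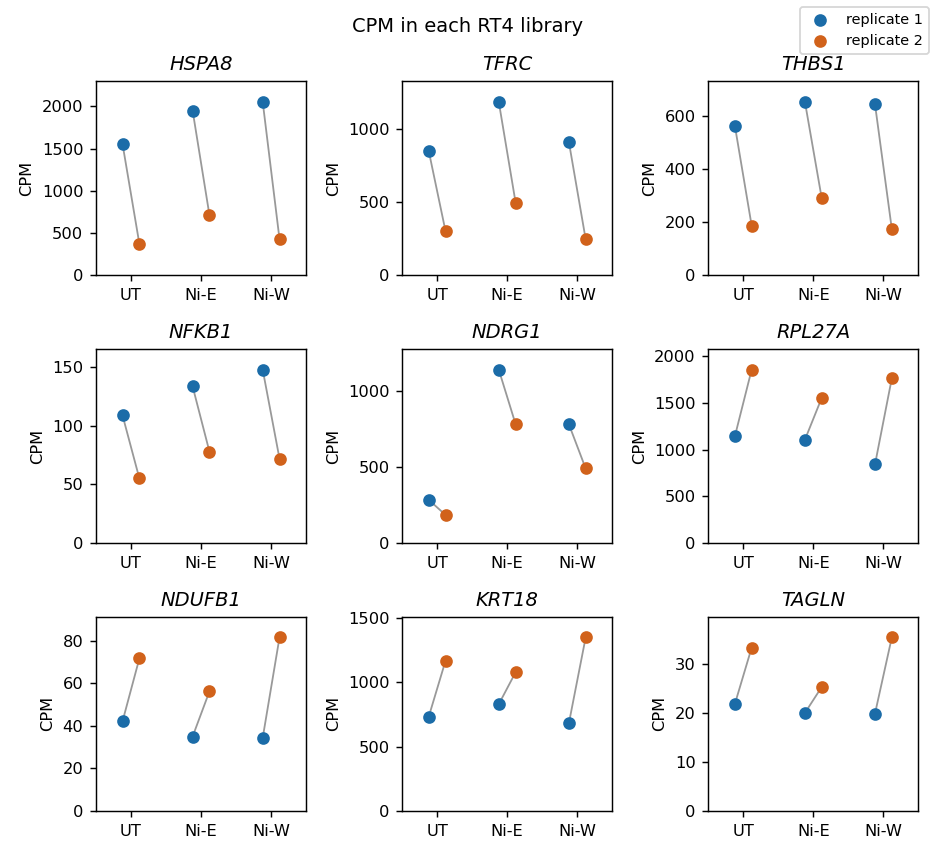
CPM of 9 genes in each of the 6 libraries, with replicate 1 in blue and replicate 2 in orange, joined within each condition, and with the y axis starting at 0. HSPA8, TFRC, THBS1, NFKB1 and NDRG1 are lower, and RPL27A, NDUFB1, KRT18 and TAGLN higher, in replicate 2 in every condition.

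To describe genes called with and without the length and GC offset, protein-coding genes with a mean of at least 20 CPM were kept that were called in the same direction in both fits and whose estimates were whole numbers in every library, a rule chosen after values were seen. There were 353 lower and 89 higher. The falls led with ADAM9, a membrane metalloprotease, at 71.4 and 15.2 CPM in UT, 74.6 and 20.2 CPM in Ni-E, and 112 and 15.5 CPM in Ni-W cells (-2.32 ± 0.161, adjusted p = 7.65e-05, and -2.04 with the offset). ITGB1, the integrin beta-1 chain that binds matrix, had 110 and 32.5 CPM in UT, 117 and 47.4 CPM in Ni-E, and 168 and 32.9 CPM in Ni-W cells (-1.80 ± 0.163). WEE1, the kinase that holds back entry into mitosis, had 93.9 and 25.8 CPM in UT, 121 and 52.9 CPM in Ni-E, and 164 and 37.99 CPM in Ni-W cells (-1.72 ± 0.152). None of these 3 overlapped between replicates.

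The same group held LYPLA1, a depalmitoylating enzyme (-1.62), ACER2, a Golgi ceramidase (-1.58), EPS8, an actin regulator (-1.71), PITPNB, a phosphatidylinositol transfer protein (-1.58), SMCR8, a partner of C9orf72 in autophagy (-1.80), and KIF2A, a microtubule-depolymerizing kinesin (-1.67). GTF2I (-1.93) has near-identical copies in the genome, so that its value is uncertain although its estimates are whole. The higher genes had smaller differences. EIF5B, a factor that joins ribosomal subunits at the start codon, had 154 and 291 CPM in UT, 160 and 280 CPM in Ni-E, and 175 and 290 CPM in Ni-W cells (0.82 ± 0.078, adjusted p = 0.000154, and 1.22 with the offset), so that replicate 2 was nearly constant over the conditions and above replicate 1 throughout. FAM162A, a mitochondrial protein inducible by hypoxia, had 247 and 464 CPM in UT, 236 and 368 CPM in Ni-E, and 165 and 364 CPM in Ni-W cells (0.90 ± 0.098, adjusted p = 0.000187). Others were MAP3K12, a kinase upstream of JNK (0.99), ODF2L (0.99), and the zinc finger genes ZNF480 (0.97), ZNF875 (0.84) and ZNF195 (0.82).

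The median of splicing factors and nuclear RNAs was 0.134 without and 0.345 with the offset, and -0.14 on log2(TPM + 1), with 1 of 25 called in each direction without the offset and 5 higher and 1 lower with it. Of all genes, 9.09% were higher and 12.7% lower without the offset, and 5.26% and 6.56% with it. SON, a large scaffold protein of nuclear speckles, was the one lower in both fits, at 365 and 142 CPM in UT, 329 and 147 CPM in Ni-E, and 393 and 123 CPM in Ni-W cells (-1.40 ± 0.101, adjusted p = 7.65e-05, and -1.08 with the offset). Its replicates did not overlap. LUC7L, a component of the U1 particle, was the one higher without the offset (0.67).

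**Figure D4:**
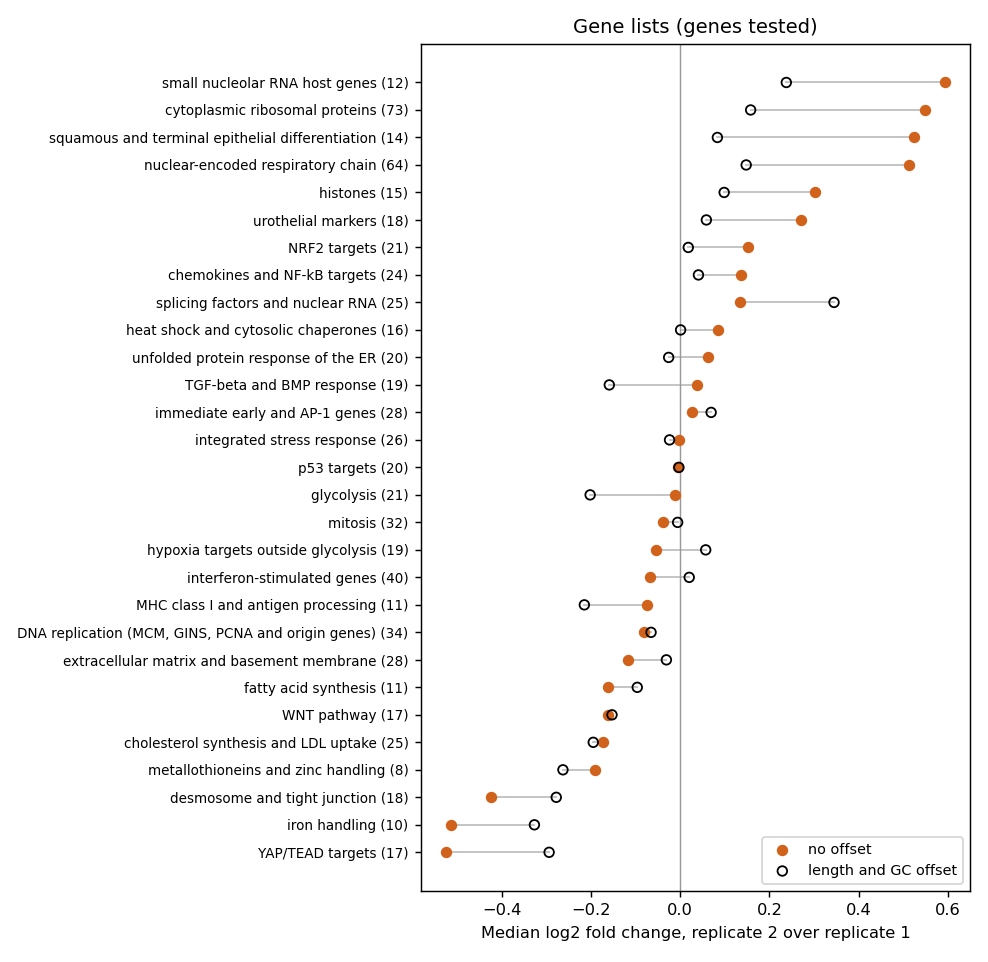
Median log2 fold change of replicate 2 over replicate 1 (x axis) for the lists with at least 8 tested genes, whose number is in parentheses, without (filled) and with (open) the length and GC offset. The medians run from -0.525 to 0.595 without the offset and lie closer to 0 with it for the lists at either end.

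The largest rises belonged to genes that share reads with others, and their values are uncertain. Of the 10 largest rises among called genes with at least 5 CPM, each had estimates that were not whole numbers in 4 to 6 libraries, the mark of reads divided among genes. Read-through genes, which join neighbouring genes in 1 transcript, led them. PPAN-P2RY11 stood at 7.04 and 33.1 CPM in UT, 1.65 and 33.1 CPM in Ni-E, and 2.41 and 34.2 CPM in Ni-W cells (3.28 ± 0.307, adjusted p = 0.000146). TMX2-CTNND1 was listed at 7.09 and 21.04 CPM in UT, 0 and 15.6 CPM in Ni-E, and 0 and 25.1 CPM in Ni-W cells. The others of the 10 were PHOSPHO2-KLHL23, C1QTNF3-AMACR, FMC1-LUC7L2, TIAF1, U2AF1, UGT1A9, NPIPB12 and LOC102723360. As a class chosen after these values were seen, 86 read-through genes included 18 higher and 11 lower (20.9% and 12.8%, against 9.09% and 12.7% of all genes), and 629 genes whose estimate was not whole in at least 1 library included 111 higher and 85 lower (17.6% and 13.5%, against 8.7% and 12.6% of the 13873 with whole estimates).

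Among the 10 largest falls, 8 had whole estimates in every library. ZBED6, an intronless gene inside ZC3H11A that encodes a repressor of transcription, had 20.1 and 1.18 CPM in UT, 20.3 and 3.32 CPM in Ni-E, and 34.5 and 1.08 CPM in Ni-W cells (-3.75 ± 0.338, adjusted p = 0.000131, and -3.52 with the offset). KIAA0754, which overlaps MACF1, had 12.6 and 1.65 CPM in UT, 14.2 and 1.53 CPM in Ni-E, and 23.7 and 1.04 CPM in Ni-W cells (-3.53 ± 0.256). Replicates did not overlap in either. CHTF8, of a clamp loader for replication, had 81.7 and 3.10 CPM in UT, 72.9 and 14.3 CPM in Ni-E, and 89.6 and 13.6 CPM in Ni-W cells, with estimates that were not whole. Besides ADAM9, the others were NHSL2 (-2.81), the long noncoding RNA THRIL (-2.70), IRS4, an insulin receptor substrate (-2.59), NBEAL1 (-2.53), SMARCA5-AS1 (-2.38) and LOC114483834. The kit named in the study's methods does not mark strand, so that reads of ZBED6, KIAA0754, THRIL and SMARCA5-AS1 cannot be told apart from those of genes overlapping them, introns included.

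By class, the long noncoding genes included 144 of 896 higher and 85 lower (median 0.227), and protein-coding genes 1082 of 12994 higher and 1688 lower (median 0.0018). The noncoding genes were shorter, with a median of 1892 bases against 3190. Genes with 1 exon included 60 of 474 higher and 68 lower. Of all tested genes, 9.09% were higher and 12.7% lower. Among genes averaging 5 CPM or more and outside the read-sharing rises, the replicate difference varied most between conditions for CBS, the first enzyme of transsulfuration. It was listed at 9.24 and 0 CPM in UT, 15.3 and 16.1 CPM in Ni-E, and 17.6 and 18.5 CPM in Ni-W cells. It differed in UT cells alone and was not called (adjusted p = 0.331), and its estimates were not whole in 3 libraries.

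Nickel comparisons in RT4 cells depended on whether the replicate number was in the model. Since the ratios of all pairs of conditions correlated far above 0.1, libraries with the same number were taken as pairs. Without the number, edgeR called 314 genes between Ni-E and UT cells (2.17%) and 87 between Ni-W and UT cells (0.6%). It called 0 between Ni-W and Ni-E cells (0%), where 808 had an unadjusted p below 0.05. DESeq2 without the number called 780, 483 and 163 in these comparisons. With the replicate as a block, edgeR called 1833 (12.6%), 1243 (8.57%) and 655 (4.52%). Leaving out UT replicate 1 or 2 or Ni-E replicate 1 or 2 without the block gave 44, 18, 0 and 0 calls between Ni-E and UT cells and 2, 0, 0 and 0 between Ni-W and UT cells, and leaving out Ni-W replicate 1 or 2 gave 32 and 38 of the latter. In each of these fits 1 condition held 1 library, and the other conditions gave the spread. In the fits of all 6 libraries, all 314 and 87 genes called without the block were also called with it. Both fits use the same libraries, so this overlap is not separate support for the calls. The spread between libraries that edgeR estimated, as a biological coefficient of variation, was 0.26 without and 0.097 with the replicate number. The comparisons share UT, Ni-E or Ni-W libraries with each other.

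**Figure D5:**
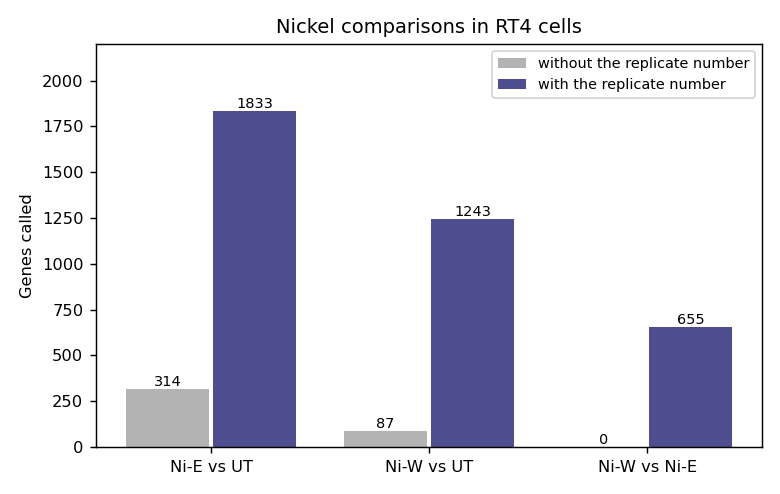
Number of genes called by edgeR (y axis) in 3 nickel comparisons of RT4 cells, without (grey) and with (blue) the replicate number in the model. The numbers were 314, 87 and 0 without it and 1833, 1243 and 655 with it.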

How the data were processed

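RNA-Seq of 6 RT4 libraries was analysed, and the ChIP-Seq libraries were not used here. The authors deposited RSEM estimated counts, TPM, FPKM and transcript lengths for 28252 genes. The methods of the study describe libraries from an Illumina TruSeq RNA kit, alignment to hg19 with STAR with multiple hits removed, and DESeq2. The submitters' processing notes name STAR and DESeq2 and the builds hg38 and GRCh38. Whether the deposited estimates come from those alignments is not given in the sources used here, so gene positions from the files are not printed. The deposited expected counts were rounded to whole numbers. The deposited TPM was used for levels of lists and in alternatives, and FPKM was not used.

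Libraries were compared with edgeR 4.0.16 (R 4.3.3, TMM factors, its expression filter, quasi-likelihood test, a model of condition and replicate with 2 residual degrees of freedom), which shares the spread over genes. A call needed a 1.5-fold difference and a Benjamini-Hochberg adjusted p below 0.05. Nickel comparisons were fitted without and with the replicate. Same-numbered libraries deviated together (r from 0.876 to 0.953), and the pairing comes from the titles. GC content came from GENCODE reference transcripts and length from the deposited lengths. Trends on both were fitted per library with mgcv 1.9.3. Alternatives used DESeq2 1.42.0, limma 3.58.1 on log2(TPM + 1) or log2(TPM + 0.1) (mean TPM at or above 1), other scalings and filters, libraries left out, and offsets.

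Named genes were, among called genes averaging 5 CPM or more, with 1 direction in all conditions, the 10 largest rises and falls, then up to 4 called members of each of 35 lists (or the 2 most abundant where none was called), the 5 highest by TPM, and the 5 with the widest range of replicate differences over conditions. The members and lists were chosen with earlier results of these data known. Not all genes under the rule are printed, and some are not reported here. Data were simulated for 14502 genes in the comparison of replicates, with changed genes drawn above 5 CPM. The other genes had no replicate difference, and thus no length or GC trend between replicates. Of the changed genes, 44 of 50 at 1.5-fold and 50 of 50 at 2-fold passed the adjusted p with the right sign. Of the unchanged genes, 10 passed it. The 1.5-fold cut of a call was not applied there. The genes changed 1.5-fold had a median of 0.578 on the log2 scale, just below that cut. Estimates were called whole within 0.01 of a whole number. The estimates carry no molecular identifiers, so counting error does not cover the preparation. Figures were drawn with matplotlib.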

Additional observations from a re-analysis of the deposited data

How the results depend on the processing

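Between replicates, 3154 genes were called (1318 higher and 1836 lower in replicate 2). Leaving out 1 library at a time gave 2157 to 4170 calls, 774 to 1885 of them higher and 1351 to 2303 lower. Leaving out both Ni-W libraries gave 807 higher, and leaving out condition from the model 816. limma gave 183 higher on log2(TPM + 1), 247 higher and 3121 lower on log2(TPM + 0.1), and 954 lower after median centring. The last was chosen after seeing the data, as were the offsets. With the length and GC offset, 1658 were called (738 higher, 920 lower), and with length alone 1782 (749 and 1033). DESeq2, RLE scaling, other filters, thinning, effective lengths, GC alone and whole estimates alone left all 3 counts within 1.5 times.

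For Ni-E vs UT, Ni-W vs UT and Ni-W vs Ni-E, 314, 87 and 0 genes were called without the replicate block, and the block gave 1833, 1243 and 655. Without the block, DESeq2 called 780, 483 and 163, no filter gave 193 and 14 for the last 2, at least 10 counts in every library 209 and 54 for the first 2, and the length and GC offset 844, 427 and 60. With the offset and the replicate block there were 1981, 1424 and 901. Leaving out 1 library gave 0 to 320, 0 to 38 and 0 calls. The cause of these changes was not tested.

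Among single genes, the sign of the log2 fold change turned for RPS27 (-0.147) and RPL13A (-0.024) on the TPM scale with either pseudocount. It turned with the length and GC offset for ITGAM (0.124), RNR1 (-0.015), HSPB1 (-0.065), RPS27 (-0.329) and RPL13A (-0.140), and with length alone for ITGAM (0.196), RNR1 (-0.127), RPS27 (-0.417) and RPL13A (-0.142). ITGAM also turned with median-centred TPM (0.045). CBS ran from -1.248 to 0.072 with 1 library left out and was 0.073 without both UT libraries. None of these genes was called in the other direction. Of 30 list medians, 28 moved by more than their spread over the conditions on log2(TPM + 1), 30 on log2(TPM + 0.1), 11 after median centring and 20 with the length and GC offset.

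When a library was left out, its partner carried no replicate information, so these fits rest on 2 conditions. With 2 residual degrees of freedom, the adjusted p-values lean on the spread shared over genes. Genes at a few CPM rest on few reads.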

Other observations

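Further lists had values that stand in none of the comparisons above. Of 17 genes of the WNT pathway, 4 were called lower in replicate 2 and 0 higher, against 12.7% and 9.09% of all tested genes, with LGR4, a receptor for R-spondins (-1.18), and FZD7, a Frizzled receptor (-0.79), lower with the length and GC offset as well. LGR5, a stem cell marker of several epithelia, had 40.3 and 22.6 CPM in UT, 147 and 106 CPM in Ni-E, and 59.5 and 30.9 CPM in Ni-W cells (replicates 1 and 2). In the TGF-beta and BMP list, 2 of 19 were called lower and 0 higher, against 12.7% and 9.09% of all genes. The receptor TGFBR2 was lower, with 80.9 and 38.8 CPM in UT, 112 and 56.0 CPM in Ni-E, and 111 and 38.1 CPM in Ni-W cells (-1.20 ± 0.116, edgeR adjusted p = 0.000155), as was LTBP1, which binds latent TGF-beta (-0.89). Of 20 tested p53 targets, RRM2B, a ribonucleotide reductase subunit, was the only one called (-1.01), a share below that of all genes. Of 21 NRF2 targets, UGDH was the only one called (-0.64), likewise below that share, and it was not called with the offset.

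Of 28 immediate early and AP-1 genes, 3 were called higher and 3 lower, near the shares over all tested genes (9.09% and 12.7%). KLF4, a transcription factor of epithelial differentiation, was lower (15.1 and 7.81 CPM in UT, 30.3 and 16.9 CPM in Ni-E, 30.9 and 14.7 CPM in Ni-W), and JUND, an AP-1 subunit with a transcript GC content of 69.93%, was higher without the offset only (0.71 and 0.27). The unfolded protein response of the ER had 2 of 20 genes called higher and 4 lower, against 9.09% and 12.7% of all genes. With the offset there were 1 and 2, against 5.26% and 6.56%. EDEM1, which directs misfolded glycoproteins to degradation, was lower in both fits (-1.06 and -0.66), as was DNAJB9 (-0.735 and -0.6925). SEL1L was lower without the offset only (-1.04 and -0.54). SEC61B, of the translocation channel, was higher without the offset only (0.73 and 0.30). In antigen processing, 2 of 11 tested genes were called higher and 3 lower, and 0 and 2 with the offset, against the same shares of all genes. The peptidase ERAP1 was lower (-0.91) and the immunoproteasome subunit PSMB10 higher (0.77), neither with the offset.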
